A study of Mus musculus with 16 samples.

Results

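Of the 67258 accessible regions that the peak list for newborn male germ cells holds, 3140 were found again at postnatal day 3 and in no fetal list. These 3140 regions, called regions first open after birth below, were chosen by position alone. A region is a peak of the P0 list that overlaps a peak of the P3 list by at least 1 bp and overlaps no peak of the 4 fetal lists. They make up 4.67% of the P0 list and, counted from the other side, 7.02% of the 44760 peaks at P3. Because the lists themselves chose the regions, these shares are a description. The name holds only as far as the calls go: a stretch of DNA with no fetal peak was not called, which is not a measurement that it was closed.

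The data come from ATAC-seq, in which a transposase cuts exposed DNA, on germ cells of the male mouse. All animals carried the Mvh-Venus transgene, a fluorescent reporter of germ cells, and the tissue is given as testis. The 16 samples form 8 groups of 2, with *Morc1* (+/-) heterozygous or *Morc1* (-/-) knockout cells taken on embryonic days E13.5 and E16.5, on the day of birth (P0) and at P3. No animal without a *Morc1* mutation is among the groups used here. One list of peak positions stands for each group, so no value below has a spread between samples and no test between stages or genotypes was possible. The heterozygous and knockout lists were the same in every row at P0 and again at P3, which leaves 6 distinct lists. The P0 and P3 values below therefore carry no genotype.

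Gonocytes, also called prospermatogonia, are male germ cells between sex determination and the first spermatogonia. They stop dividing in the fetus, receive new DNA methylation while arrested, and after birth move to the basement membrane of the seminiferous cord, divide again and give rise to spermatogonia. Accessible DNA marks promoters, enhancers and other places where proteins displace nucleosomes. Promoters rich in CpG dinucleotides are typically open in many cell types, whereas CpG-poor promoters tend to be open in fewer.

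The deposited positions have no sequence, and no genome was at hand, so the sequence of the regions away from gene starts was not used here. RefSeq start windows of build GRCm38.p6, which run from 250 bases before to 50 bases after a transcription start, gave the sequence at starts. The sequence at 4 starts met by a region is printed as examples of low and higher CpG content, not of its full range, followed by *Ddx4* for contrast. They were picked after their values were seen, apart from *Acta2*, which a list of somatic markers named. Each line gives the 250 bases upstream of the start, 5′ to 3′ on the gene's strand, with CpG dinucleotides in capitals.
Acta2 (chr19:34255374-34255623, minus strand): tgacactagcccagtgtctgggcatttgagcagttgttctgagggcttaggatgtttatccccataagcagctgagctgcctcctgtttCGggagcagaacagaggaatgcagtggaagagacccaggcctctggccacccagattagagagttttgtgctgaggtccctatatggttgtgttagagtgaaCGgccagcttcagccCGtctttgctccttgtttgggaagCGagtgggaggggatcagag
Krt20 (chr11:99438154-99438403, minus strand): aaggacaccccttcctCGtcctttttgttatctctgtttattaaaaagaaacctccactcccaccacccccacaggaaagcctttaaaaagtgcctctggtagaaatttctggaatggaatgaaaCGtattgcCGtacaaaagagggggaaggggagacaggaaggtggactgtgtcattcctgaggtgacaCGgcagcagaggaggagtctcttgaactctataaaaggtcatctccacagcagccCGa
H1f7 (chr15:98257308-98257557, minus strand): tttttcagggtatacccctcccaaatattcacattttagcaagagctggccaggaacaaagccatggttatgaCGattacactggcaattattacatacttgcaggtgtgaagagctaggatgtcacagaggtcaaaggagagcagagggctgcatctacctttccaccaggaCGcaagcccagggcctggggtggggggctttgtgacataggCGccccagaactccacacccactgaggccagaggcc
Id3 (chr4:136143572-136143821, plus strand): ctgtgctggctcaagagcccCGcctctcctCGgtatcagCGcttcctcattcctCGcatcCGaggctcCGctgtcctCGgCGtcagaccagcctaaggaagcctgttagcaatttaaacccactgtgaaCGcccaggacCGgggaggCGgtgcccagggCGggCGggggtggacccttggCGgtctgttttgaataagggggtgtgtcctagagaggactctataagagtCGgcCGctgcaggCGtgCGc
Ddx4 (chr13:112652311-112652560, minus strand): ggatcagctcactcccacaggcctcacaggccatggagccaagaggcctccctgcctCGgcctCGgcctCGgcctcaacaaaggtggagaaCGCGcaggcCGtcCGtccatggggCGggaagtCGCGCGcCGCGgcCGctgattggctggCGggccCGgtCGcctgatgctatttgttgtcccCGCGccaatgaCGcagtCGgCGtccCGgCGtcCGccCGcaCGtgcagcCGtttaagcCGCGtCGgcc

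The first 3 have few capitals. *Acta2* encodes smooth muscle actin, *Krt20* an intermediate filament keratin of epithelia and *H1f7* a linker histone of spermatids. These upstream stretches held 4, 5 and 3 CpG dinucleotides. *Krt20* also has the string TATAAA with its first base 29 bases before the start. *Id3*, which encodes an inhibitor of basic helix-loop-helix transcription factors, held 18 CpG and is the CpG-rich end of the printed set. *Ddx4* encodes the germ-cell RNA helicase also known as Mvh, its start was met in all 6 lists, and it held 31.

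The fetal lists held 40448 (E13.5 heterozygous), 39559 (E13.5 knockout), 53687 (E16.5 heterozygous) and 57117 (E16.5 knockout) peaks, against 67258 at P0 and 44760 at P3. Read depth is unknown, and the part of list length in the absence of a fetal peak was not tested. Of 37434 P0 peaks found again at P3, 34294 (91.6%) were also in a fetal list. Among these 34294, 2182 were found in a knockout fetal list and in no heterozygous one. With the heterozygous fetal lists alone, 5322 regions would therefore qualify. The reverse pattern, a heterozygous fetal list and no knockout one, was held by 1390 peaks.

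Few regions lay at the edge of the rule. A fetal peak lay within 50 bp of the edge of 30 regions, within 100 bp of 64 and within 500 bp of 189. Just outside, 47 peaks of P0 and P3 were left out for a fetal overlap of at most 50 bp, the smallest of 7 bp. The overlap with P3 was at most 50 bp for 40 regions, and its median was 432 bp, close to the full width of a peak. Among the 40 were regions of *Becn2*, *Gucy1a1* and *Fshr* and 1 of *Ccbe1*, all named below, with P0 and P3 centres 467 to 496 bp apart.

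Most regions first open after birth lay away from genes. Between annotated genes lay 59.3% of them (95% Wilson interval 57.6 to 61.0), within a gene's bounds 25.3% (23.8 to 26.8), and within 1000 bp of an outer end of a gene 15.4% (14.2 to 16.7). The intervals here and below cover counting over regions only. The gene table gives outer bounds without exons, so exon and intron were not told apart. Of 3 sets drawn from the same P0 list, the 12348 peaks gained by E16.5 and kept to P3 had 11.99% at gene ends (11.4 to 12.6). The 13848 peaks of P0 alone had 12.3% (11.7 to 12.8), and the 17150 peaks in all 6 lists had 64.0% (63.2 to 64.7). The regions first open after birth thus stood slightly above the first 2 sets and far below the third. With protein-coding genes alone their share at gene ends was 5.45% (4.71 to 6.30), against 4.20% (3.86 to 4.56) for peaks gained by E16.5 and 4.55% (4.21 to 4.91) for P0-only peaks, whose interval overlaps theirs.

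Distance to a transcription start gave the same order. The median was 50985 bp (95% interval 46186 to 55069) for regions first open after birth, 69889.5 bp (67035 to 72951) for P0-only peaks and 77908.5 bp (74697 to 81553) for peaks gained by E16.5. Peaks in all 6 lists lay a median of 386.5 bp from a start. A start lay within 10 kb of 18.8% of the regions and within 1 kb of 6.08%. Within 500 kb of a region lay a median of 5 protein-coding genes (quartiles 1 and 10), against 3 around the P0-only peaks, 3 around peaks gained by E16.5 and 12 around peaks in all 6 lists.

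**Figure D1:**
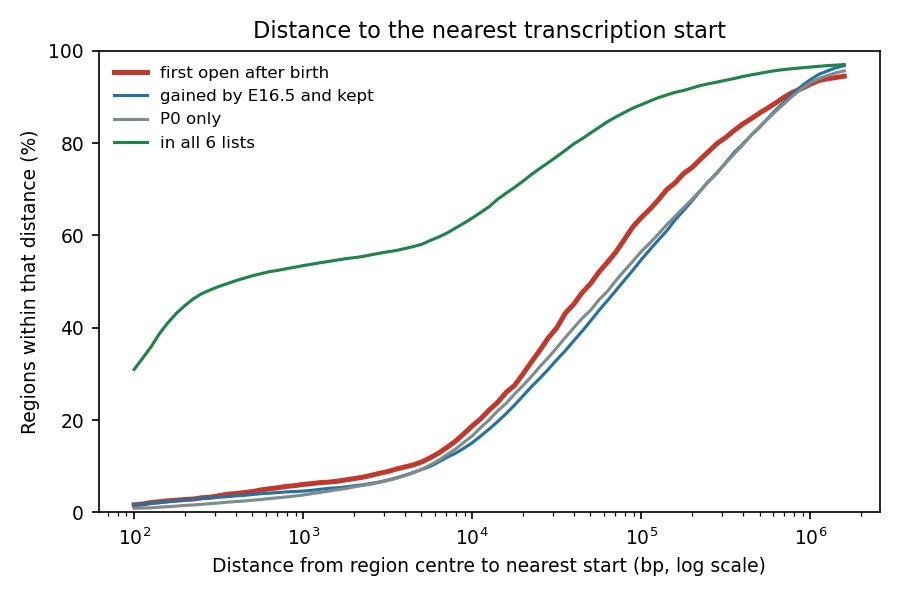
Share of regions (vertical axis, percent) whose centre lies within a given distance of the nearest transcription start (horizontal axis, bp, log scale), for regions first open after birth and 3 other sets of P0 peaks. The red curve reaches 18.8% at 10 kb, between 15.1% for peaks gained by E16.5 and 63.8% for peaks in all 6 lists.

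The regions that did meet a start met few. They touched 129 of 32851 start windows (0.393%), which belong to 122 genes, 59 of them protein-coding and 63 long non-coding RNA genes. Long non-coding RNA genes made up 51.6% (42.9 to 60.3) of these genes, 46.0% (41.4 to 50.7) at starts gained by E16.5, 47.0% (41.6 to 52.5) at P0-only starts and 11.7% at starts open in all 6 lists. They are 35.3% of all genes with a start window. The intervals of the first 3 sets overlap, so no difference among them was seen at these numbers.

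The starts met after birth had less CpG than starts open in all 6 lists. Against start windows at large their pooled median was alike. Coding starts had less CpG than all coding starts, and long non-coding RNA starts more than all such starts. The ratio of observed to expected CpG, which is near 1 where CpG is not depleted, had a median of 0.40 (0.37 to 0.45) in the 300-base windows, beside 0.38 over all start windows and 0.80 over those in all 6 lists. At coding starts it was 0.40 (0.36 to 0.47), against 0.57 over all coding starts and 0.80 over coding starts in all 6 lists. At long non-coding RNA starts it was 0.40 (0.34 to 0.48), above the 0.24 of all such starts. The other sets went the same way: such starts had 0.34 (0.32 to 0.36) when gained by E16.5, 0.39 (0.36 to 0.42) when P0-only and 0.79 in all 6 lists. Coding starts had 0.43 when gained by E16.5 and 0.44 when P0-only. A ratio of at least 0.6 was found in 17.8% (12.2 to 25.3) of the windows met by a region, against 35.8% of all start windows. That share was 19.6% at starts gained by E16.5, 20.5% at P0-only starts and 80.1% at starts in all 6 lists. Windows with a high ratio were thus about as rare in the other 2 sets that were not called at E13.5.

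**Figure D2:**
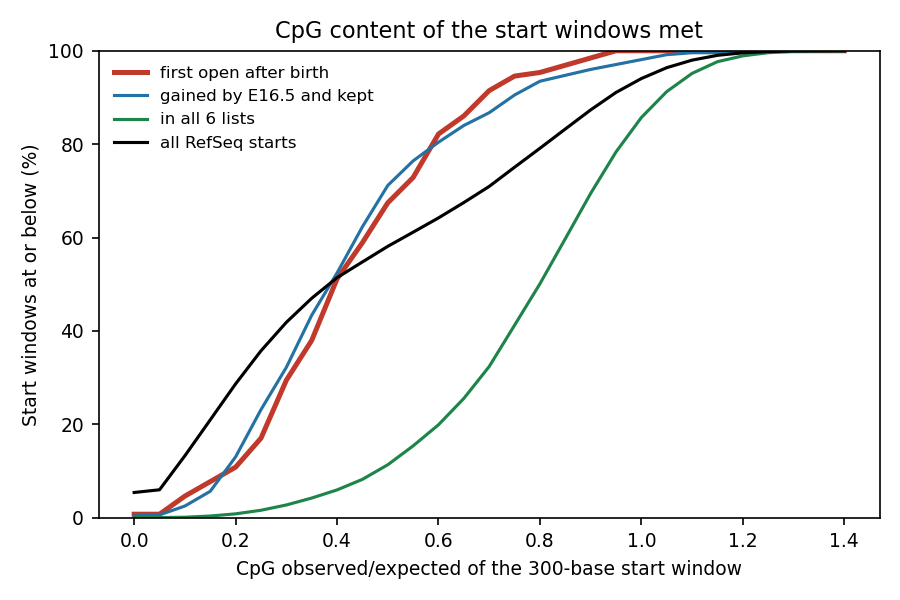
CpG content of the start windows met by each set, as the observed to expected ratio in 300 bases. Starts met by regions first open after birth have a median of 0.40, next to 0.39 for starts gained by E16.5, while starts in all 6 lists have 0.80.

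Most of these starts had no fetal peak close by. Within 1000 bp of the start no fetal list held a peak for 113 of the 129 windows (87.6%), and for 51 of the 62 coding windows. For 5 coding starts a fetal peak lay within 1000 bp in all 4 fetal lists: *Bivm*, *Nhlrc3*, *Gucy1a1* (a subunit of the nitric oxide receptor guanylate cyclase), *Ubqln4* and *Nfyc* (a subunit of the CCAAT-binding factor). At these 5 the region lay beside a fetal peak, with centres 531 to 727 bp apart. Of the 16 windows with a fetal peak near, 6 reached a CpG ratio of 0.6, and of the 113 without, 17 did. Of the coding starts, 53 of 62 had the region's centre within 250 bp.

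Coding genes whose start or outer end was met numbered 83, and 67 of them had no other P0 peak at their ends. The named examples of these follow a fixed order, list members first, then genes with the most regions, then the alphabet. *Abcc3*, an organic anion exporter, had 2 peaks at P0, both of them regions, 2 at P3 and none in any fetal list. *Acsm3* (a medium-chain acyl-CoA synthetase), *Actbl2* (a beta-actin-like protein), *Becn2* (a relative of the autophagy protein beclin), *Calhm4* (a channel family member) and *Cass4* (an adhesion scaffold) each had 1 peak at P0, 1 at P3 and none before. The same held for *1700020D05Rik*, *1700021F07Rik*, *1700029P11Rik*, *1700034E13Rik* and *A930009A15Rik*. *Akr1b8*, an aldo-keto reductase, had 1 peak in the E13.5 knockout list, and *Ccn4*, a matricellular protein, 1 in the E13.5 heterozygous list. The last 2 of the 15 named genes were *Acta2*, with 1 peak in each E13.5 list and none at E16.5, and *Bivm*, with 1 in each fetal list. Thus 4 of the 15 had a fetal peak within the gene or 1000 bp of it, and 11 had none. These genes were picked through regions, which by rule overlap no fetal peak, so the count is a description. Of all 21887 coding genes, 15079 had a peak in the E13.5 heterozygous list at the same reach.

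The 59 coding genes with a start met were of mixed kinds, and those named next were picked after their values were seen. *Krt75*, *Krt2* and *Krtap22-2* encode hair and skin keratins or keratin-associated proteins. *Dock2* and *Klhl6* act in lymphocytes, and *Mrc1* encodes the mannose receptor of macrophages. *Lgi1* encodes a secreted neuronal protein, and *Kcnj16* a potassium channel. *Agrn* encodes agrin of the basement membrane, and *Dkkl1* a protein of spermatids. The region at *Agrn* also met starts of the long non-coding RNA gene *Gm46878*, so it cannot be assigned to one gene. No fetal list held a peak within 1000 bp of the start met in any of these 10 genes, as for 51 of the 62 coding windows met. Other starts of these genes were not looked at here. *Vegfa*, which encodes the vascular growth factor, differed: a peak of the E16.5 knockout list lay within 1000 bp of the start met.

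In all, 14 short strings were searched on both strands of the 300-base windows. The string for DMRT factors was ACATTGT, that for AP-1 was TGACTCA and that for SP and KLF factors was GGGCGG. The factor NFY was given CCAAT, the cAMP response element TGACGTCA, the ETS family CCGGAAGT and the factor NRF1 GCATGCGC. The E-box was written as CACGTG, the POU octamer as ATTTGCAT and the GATA family site as AGATAAG. For nuclear receptors the monomer site AGGTCA was used, for RUNX factors TGTGGT, for STAT factors TTCCNGGAA and for the TATA box TATAAA. None of these strings lies wholly within another. GGGCGG was in 27.1% (20.2 to 35.4) of the windows met by a region, 35.7% of all start windows and 71.6% of those open in all 6 lists. CCAAT was in 34.9% (27.2 to 43.4), against 37.4% of all windows. AGATAAG was in 9 windows, 6.98% (3.71 to 12.7), against 3.04% of all windows and 2.11% (1.15 to 3.83) of those gained by E16.5. Its share fell to 4.67% with a reciprocal overlap of 50% and to 4.69% with the heterozygous fetal lists alone. Under the other alternatives it was 6.90% to 7.55%. TATAAA was in 13.95%, against 13.6% of all windows. With 14 strings looked at and no adjustment, the share of AGATAAG is a description of 9 windows.

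Within or within 1000 bp of their bounds, 710 of 21887 protein-coding genes (3.24%) held a region. Of these, 625 held 1 region, 71 held 2, 10 held 3, 3 held 4 and 1 held 8. Genes with a region had a median length of 72140.5 bp (58457 to 83647), and genes with any P0 peak 24422 bp. The genes with most regions were long, 9 of the 15 leading ones over 900 kb.

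*Pde4d*, which encodes a cAMP phosphodiesterase, held the most regions. Its bounds, chr13:108654177-109955969 (GRCm38, plus strand), held 15 and 16 peaks in the E13.5 heterozygous and knockout lists, 9 and 12 in the E16.5 lists, 28 at P0 and 24 at P3. Of the 28 P0 peaks 8 were regions, 0.61 per 100 kb. They lay from 208 kb to 1140 kb from the lower outer end of the gene, and the nearest fetal peak centre was 7.549 to 35.096 kb away. The peak count was thus lower at E16.5 than at E13.5 and highest at P0.

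One of the *Pde4d* regions, chr13:109324591-109325091, covers a microRNA hairpin, *Mir582*, at chr13:109324744-109324824 (plus strand). Its RefSeq mature sequences are printed with the seed, bases 2 to 8, in capitals because no other region overlapped a hairpin of the table. Of 1005 hairpins 2 lay within 1000 bp of a region, and the other, *Mir1928*, was 85 bp from one.
mmu-miR-582-5p: aUACAGUUguucaaccaguuac
mmu-miR-582-3p: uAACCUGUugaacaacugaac

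*Lgr5*, a receptor for R-spondins that marks several kinds of stem cell, held 4 regions in chr10:115450314-115587780. The heterozygous and knockout lists of E13.5 each held 4 of its peaks, the heterozygous list of E16.5 held 1 and its knockout counterpart 3, against 10 at P0 and 5 at P3. Of the 5 P3 peaks 4 overlapped a region. One region also met the start of *A930009A15Rik*, which lies within the *Lgr5* bounds, so it cannot be assigned to one gene. *Adamts20*, a secreted metalloprotease, held 4 regions among 10 P0 peaks and 8 P3 peaks, after 2, 2, 3 and 3 peaks in the fetal lists. *Abca9*, a transporter of the ABC family, had none in the fetal lists and 2 at P0 and P3, both regions.

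**Figure D3:**
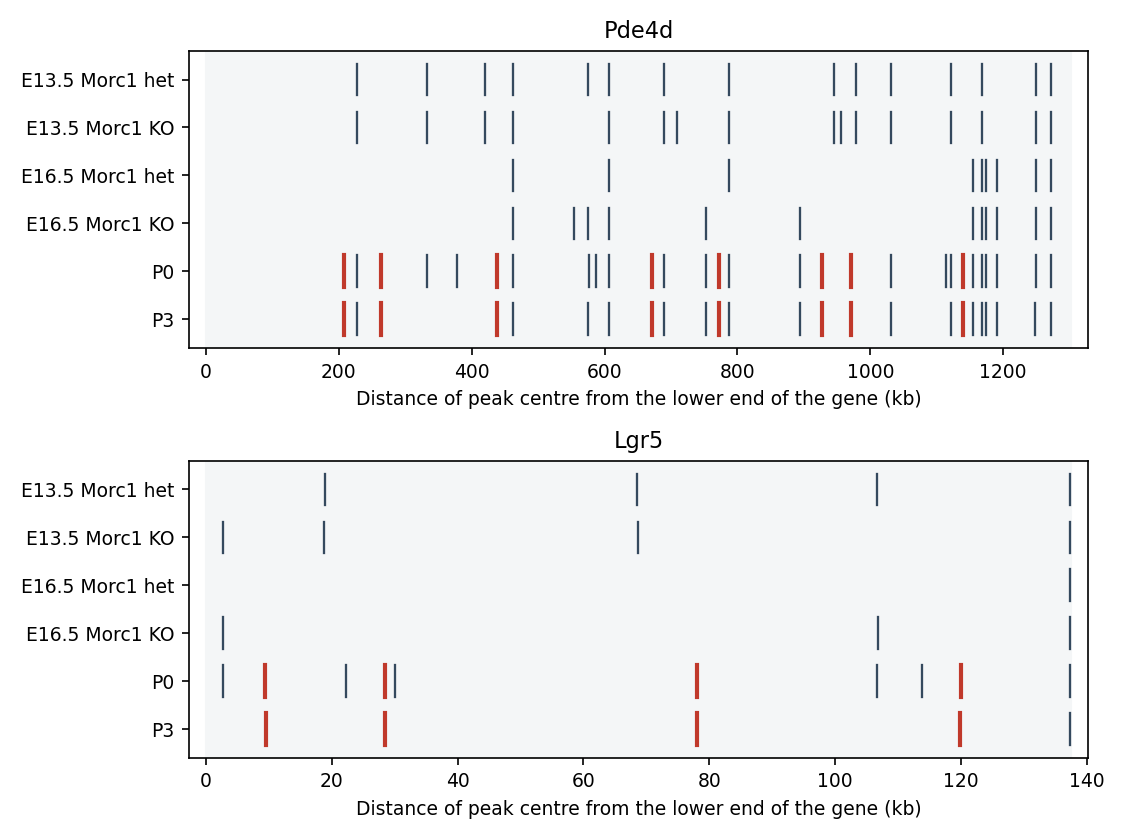
Peak centres in *Pde4d* and *Lgr5* (horizontal axis, kb from the lower end of the gene) in each of the 6 distinct lists, with regions first open after birth in red. In *Pde4d* 8 of 28 P0 peaks are red and lie among peaks seen in the fetus, and in *Lgr5* 4 of 10.

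The other leading genes held 3 or 4 regions each. *Sntg1* (a syntrophin) held 4 regions among 36 P0 peaks. With 3 regions each came *Ccbe1* (a factor of lymphatic growth, 8 P0 peaks), *Skap1* (a T-cell adaptor, 10), *Anks1b* (16), *Macrod2* (an ADP-ribose hydrolase, 16), *Lsamp* (a neural adhesion protein, 22), *Mtus2* (23), *Nlgn1* (a synaptic adhesion protein, 24), *Pcdh15* (a protocadherin, 27), *Robo1* (a receptor for SLIT guidance cues, 33) and *Epha6* (an ephrin receptor, 43). *Sntg1* and *Epha6* already had 25 and 40 peaks in the E16.5 heterozygous list.

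Of the 222 genes on 12 lists, 220 were in the gene table. Of these 220, 10 (4.55%) held a region, beside 3.24% of all coding genes. With the heterozygous fetal lists alone 19 did (8.64%), beside 5.56% of all coding genes. Adhesion and migration genes had 4 of 25, all of them long. *Robo1* had 3 regions, *Itga9* (an integrin chain) 2, *Cntn1* (a contactin) 2 and *Sema3a* (a secreted guidance cue) 1. One of the *Itga9* regions also met the start of the long non-coding RNA gene *Gm51695*, so it cannot be assigned to one gene. *Cntn1* had 1 peak in each fetal list, 8 at P0 and 3 at P3. *Itga9* had 7, 9, 5 and 8 peaks in the fetal lists, 9 at P0 and 8 at P3, so its totals at P0 and P3 lay within the fetal range.

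Among pluripotency genes 2 of 20 held a region. *Dppa2*, a chromatin factor of early embryos and germ cells, had no peak in any fetal list and 1 each at P0 and P3, at chr16:48310511-48311011, which is inside its bounds. *Tdgf1*, the NODAL co-receptor also called Cripto, likewise went from 0 to 1, at chr9:110946552-110947052. That region lies 0.644 kb upstream of its start, and a fetal peak centre was 695 bp away, outside the reach used for the gene. *Utf1* was added when the reach was 10 kb.

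Of genes for spermatogonial differentiation and retinoic acid, 1 of 25 held a region. *Aldh1a1*, a retinaldehyde dehydrogenase, had 1, 1, 0 and 0 peaks in the fetal lists and 3 at P0 and at P3. Its region lay 38.905 kb downstream of its start. *Kit*, the receptor of differentiating spermatogonia, was added at a reach of 10 kb, where the share of all coding genes was 4.87%. None of the 31 self-renewal genes, 27 cell cycle genes, 24 piRNA and transposon-silencing genes, 19 meiosis genes, 20 immediate early genes or 8 widely expressed genes held a region. Most of these genes had peaks at P0 all the same: 24 of the 31 self-renewal genes, 24 of the 27 cell cycle genes and 19 of the 19 meiosis genes. Over all coding genes 3.24% held a region, so 0 in a single list of 31 genes or fewer is close to that share.

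Of 30 markers of testis somatic cells 3 held a region, while 3.24% of all coding genes did. They were 1 of 12 Sertoli markers, 0 of 7 Leydig markers and 2 of 11 peritubular, vascular and blood markers. *Fshr*, the Sertoli cell receptor for follicle-stimulating hormone, had 2, 4, 3 and 1 fetal peaks and 3 at P0 and P3. Its region lay 1.116 kb downstream of the start, and the P0 and P3 peaks overlapped only at their edges, with centres 470 bp apart. *Pecam1*, an endothelial and blood adhesion protein, had 1, 2, 1 and 0 fetal peaks, 1 at P0 and 2 at P3. *Acta2* had 1, 1, 0 and 0 fetal peaks and 2 at P0 and P3, and its region lay over the start. Of 15 somatic markers with a start window, 6 were met in each fetal list and 7 at P0 and P3, the one added being *Acta2*. Of 4 germ-cell markers with a start window, 2 or 3 were met in every list, *Ddx4* and *Kit* in all. The part of other cell types in the regions was not tested.

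Few regions had another region close by, but their nearest P0 peak was a region more often than the share of regions in the list. Another region lay within 10 kb of 2.77% of them (87 regions) and within 50 kb of 21.4%. The nearest other P0 peak was itself a region in 9.01% of cases (8.06 to 10.1), while regions are 4.67% of the list. The same comparison gave 24.1% beside 18.4% for peaks gained by E16.5 and 27.7% beside 20.6% for P0-only peaks. The nearest fetal peak centre lay a median of 11916.5 bp away (11429 to 12504), and 10718.5 bp (10457 to 11012) from P0-only peaks.

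Of 2800 windows of 100 kb with a region, 28 held 3 or more. The window with most, chr15:100800001-100900000, holds the sodium channel gene *Scn8a* and the bicarbonate transporter gene *Slc4a8*. It had 5 regions among 8 P0 peaks and 7 P3 peaks, and 1, 1, 2 and 2 peaks in the fetal lists. A window nearest to *Tshz2*, a zinc finger gene, at chr2:169500001-169600000, had no fetal peak, and each of its 4 P0 peaks was a region. Windows with 4 regions also held *Vmn2r10*, *Vmn2r11* and *Vmn2r12* (vomeronasal receptors) or lay nearest to *Csnk1g3*. Those with 3 among the leading 10 held *Gm4868*, *Gm8882* with *Prpmp5*, or the olfactory receptor genes *Olfr582* to *Olfr585*, or lay nearest to *Bcas1*, *Aga* and *Tox3*.

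Chromosomes differed in how many new peaks of P0 lasted. Over the genome 3140 of the 16988 P0 peaks in no fetal list were found at P3, 18.5% (17.9 to 19.1), against 68.2% (67.8 to 68.6) of the 50270 with a fetal peak. On the X chromosome 55 of 1045 lasted, 5.26% (4.07 to 6.79), below each autosome, which ran from 12.7% on chromosome 12 to 27.1% on chromosome 11. For peaks with a fetal counterpart the X had 50.1% and the autosomes 69.0%, so it was lowest there as well. The autosomal share was 3.7 times the X share for new peaks and 1.4 times for the others. The gap between the shares had the reverse order: 19.4% against 5.26% for new peaks, and a wider 69.0% against 50.1% for the others. The part of X copy number in male cells was not tested. By the number of coding genes within 500 kb, new peaks lasted in 14.8% of cases with 0 or 1 gene, 21.1% with 2 to 5, 21.5% with 6 to 15 and 17.7% with 16 or more. By position, they lasted in 22.2% of cases at gene ends, 18.98% within genes and 17.5% between genes.

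**Figure D4:**
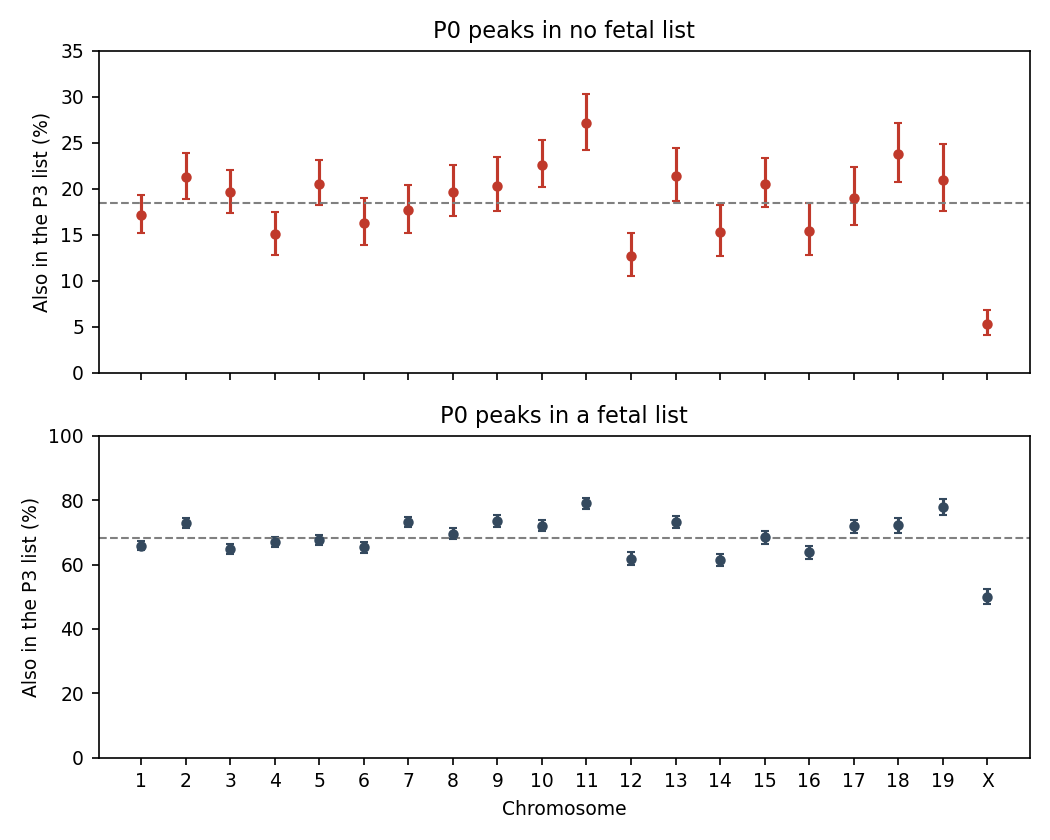
Share of P0 peaks found again at P3 (percent) on each chromosome, for peaks in no fetal list and for peaks in a fetal list, with 95% Wilson intervals. The X chromosome is lowest in both, at 5.26% and 50.1%.

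The position of a region differed more between P0 and P3 than that of peaks already present in the fetus. The 2 peak centres were a median of 69 bp apart (65 to 73, quartiles 28 and 155), against 52 bp for peaks gained by E16.5, 37 bp for peaks in all 6 lists and 44 bp for the other P0 peaks found at P3. Centres within 50 bp of each other made up 40.5% (38.8 to 42.2) of the regions and 54.6% (54.1 to 55.2) of the other shared peaks.

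**Figure D5:**
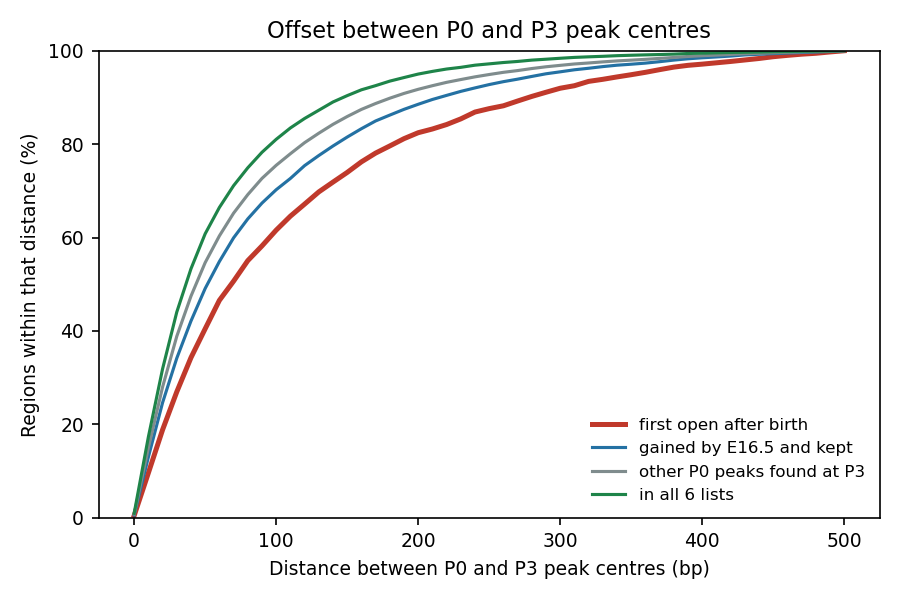
Share of regions (vertical axis, percent) whose P0 and P3 peak centres lie within a given distance (horizontal axis, bp). The curve for regions first open after birth is lowest, with 40.5% within 50 bp against 60.8% for peaks in all 6 lists.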

How the data were processed

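Each of the 8 groups of 2 samples has 1 deposited table of peak positions (chromosome, start, end), with no score, count or depth, so precision is limited to counting over regions. Per the submitters' processing notes the build was mm10, and the tools named, without their roles, were bcl2fastq 2.20, cutadapt 1.18, Bowtie2 2.3.4.1, deepTools 3.5.0 and HOMER 4.10. The peak caller's threshold and any pooling of replicates are not given in the sources used here. The 2 identical lists at P0, and those at P3, were each used once.

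Peak positions were overlapped as given with Python 3.11.15, numpy 2.4.6 and pandas 2.3.3, and are printed here in 1-based coordinates. The 3140 regions were checked against bedtools 2.31.1 and the overlap step was tested on simulated data. Genes, starts, microRNAs and sequences came from RefSeq tables of GRCm38; P0 peaks met 40.2% of start windows, and 2.30% or 2.45% when the windows were moved by 10 kb. Intervals are 95% Wilson intervals for shares and exact binomial intervals for medians.

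The regions, gene lists and measures were chosen with earlier results of these data known. Named genes are those of the 12 lists that hold a region, the 15 with most regions, those in or nearest the 10 windows of 100 kb with most regions, and up to 15 whose start or end is met by a region and that have no other P0 peak at their ends. Genes outside these rules, among them those of the printed sequences other than *Acta2* and the other examples of starts met, were chosen after their values were seen. Alternatives covered overlap, fetal lists, distances, gene classes and chromosomes.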

Additional observations from a re-analysis of the deposited data

How the results depend on the processing

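Of 167 values recomputed under alternatives, 152 moved by less than their counting interval or stayed within 1.5 times of a count, all 84 motif shares among them. These are single values of the regions and have no direction. The motif shares have wide intervals, so a shift such as that of AGATAAG also counts as unmoved. With the heterozygous fetal lists alone there were 5322 regions, 7.91% of the P0 list and 11.9% of the P3 list, with 57.4% between genes, 4.04% with another region within 10 kb and 19 listed genes holding one. Leaving out regions with a fetal peak within 500 bp gave 4.39% of the P0 list and 6.59% of the P3 list, and within 2000 bp 4.07% and 6.11%. A reciprocal overlap of 50% lowered the median centre offset to 58 bp, against 47 bp for peaks gained by E16.5 and 34 bp for peaks in all 6 lists defined the same way. Gene-end windows of 500 bp gave 12.6% at gene ends, and protein-coding genes alone 5.45% at gene ends and 74.7% between genes. The comparison sets were recomputed under these settings after the data were seen. A reach of 50 kb raised the share with another region nearby to 21.4%. No paired analysis was possible because each group has 1 peak list and no value per replicate, and leaving out a replicate was not possible for the same reason. Stricter calling thresholds need a score per peak and were not run. Unknown depth limits every statement on an absent peak.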
